A study of Mus musculus with 9 samples.

Results

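Arc, Homer1, Nptx1, Nptx2, Nptxr, Ptgs2, Plk2, Npas4, Inhba and Nrn1 are genes that neuronal activity can induce or whose products act at the synapse. They were found by symbol in the deposited table, which held all 10 among its 55335 rows, and all 10 passed the filter on low counts that left 21765 genes. Bulk RNA was measured in prelimbic cortex, a medial prefrontal area involved in pain and emotion, taken from 9 mice on day 14 after surgery. The sham group of 3 mice had sham surgery and saline. The injured saline group of 3 mice had spared nerve injury (SNI), which cuts some branches of the sciatic nerve and spares another, and saline. The R-HNK group of 3 mice had the same injury and received (2R,6R)-hydroxynorketamine, a metabolite of ketamine, at 10 mg/kg. Strain, sex, age, the route and the time of dosing are not given in the sources used here. No transgene or genetic change is named for any group, and both injured groups carry the same lesion.

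Strong synaptic input opens calcium channels and NMDA receptors, and the calcium signal activates transcription factors such as CREB, SRF and MEF2 at waiting promoters. The first genes transcribed include further transcription factors and a smaller set of effectors that act at the synapse itself. Among these effectors, Arc takes part in removing AMPA receptors from the membrane, the short form of Homer1 uncouples glutamate receptors from their scaffold, and pentraxins gather AMPA receptors outside the cell. In cortex some of these genes, such as Arc, are used as readouts of recent neuronal activity.

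The libraries held between 53624337 and 73586375 counts. Levels below are CPM, the counts of a gene relative to its library's total, scaled by edgeR's TMM method, and differences between groups are log2 fold changes with a standard error (SE). Values of 3 mice are given in the order of replicates 1, 2 and 3. A gene is said to have passed, and to have risen or fallen, where edgeR's quasi-likelihood test gave a p under 0.05 after Benjamini-Hochberg adjustment over the whole table. The excitatory cortical marker Slc17a7 ran from 1477 to 2089 CPM, and all 6 excitatory markers were detected. The second and the third sham library and the first and the third R-HNK library stood apart in 12 markers of medium spiny neurons, the main cell type of the striatum, which lies beneath the cortex. The sum of these markers was 352, 1718 and 1605 CPM in sham mice, 363, 313 and 320.5 CPM after injury with saline, and 784, 343 and 1092 CPM after injury with R-HNK. Every injured saline library was therefore low in these markers, and each of the other groups held 2 raised libraries. The raised libraries were also the highest in the sum of 6 oligodendrocyte markers. That sum was 3157, 5974 and 6602 CPM in sham mice, 3160, 4082 and 4455 CPM after injury with saline, and 4739, 3286 and 6382 CPM after injury with R-HNK. What goes with striatal markers and what goes with oligodendrocyte markers cannot be told apart by this split.

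The promoters of 5 of the 10 genes were matched by symbol in RefSeq windows on GRCm38.p6, each running from 250 bases before to 50 after a transcription start: Homer1 with 2 windows, and Ptgs2, Plk2, Npas4 and Inhba with 1 each. Arc, Nptx1, Nptx2, Nptxr and Nrn1 are named only. The stretches are shown because these genes are known as activity-regulated and because the capitals mark the letters of elements that such genes can carry. In Homer1, Ptgs2 and Npas4 the capitals mark TGACG, the core of the cyclic AMP response element (CRE), on either strand. In Plk2 they mark the full CRE TGACGTCA and the letters TCGTG, which match an NPAS4-type site, and in Inhba a MEF2 match that runs into TATAAA. The Homer1 stretch is chr13:93303577-93303756, the Plk2 stretch chr13:110394864-110395043 and the Inhba stretch chr13:16011671-16011850, all on the plus strand and each 180 bases that end at the base before the start. The Npas4 stretch is chr19:4989972-4990151 on the minus strand, of the same length. The Ptgs2 stretch is chr1:150100019-150100048 on the plus strand, 30 bases that cross the start.
Homer1: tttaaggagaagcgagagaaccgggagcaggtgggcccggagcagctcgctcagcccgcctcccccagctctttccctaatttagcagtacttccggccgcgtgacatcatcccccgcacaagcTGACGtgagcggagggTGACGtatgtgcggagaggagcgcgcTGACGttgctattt
Ptgs2: aagcggaaagacagagtcaccactaCGTCA
Plk2: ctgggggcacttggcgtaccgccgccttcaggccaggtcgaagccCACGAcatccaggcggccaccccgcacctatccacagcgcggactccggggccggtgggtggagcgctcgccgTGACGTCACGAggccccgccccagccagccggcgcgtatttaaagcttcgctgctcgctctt
Npas4: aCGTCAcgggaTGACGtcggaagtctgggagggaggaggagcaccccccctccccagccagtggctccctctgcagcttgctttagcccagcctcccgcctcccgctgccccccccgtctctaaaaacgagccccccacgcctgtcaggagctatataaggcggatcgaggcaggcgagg
Inhba: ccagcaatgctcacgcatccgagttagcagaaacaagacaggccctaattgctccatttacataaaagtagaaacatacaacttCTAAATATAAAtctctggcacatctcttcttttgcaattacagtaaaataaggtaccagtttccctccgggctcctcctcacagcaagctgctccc

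Counted on both strands over the full windows, with the position of a match's first base given relative to the start, Homer1 held this core 3 times, at -56, -40 and -14. Its second window held none of the 8 motifs searched. Npas4 held this core at -179 and -169, and Ptgs2 held it at 14. Plk2 held the only full CRE, at -62, where it overlaps a pair of cores at -62 and -59, and a further core lay at 22. It also held TCGTG at -135 and -56, and the second of these overlaps the end of the CRE. Inhba held no core. Its MEF2 match at -96 overlaps TATAAA at -91. Of the 32851 windows in the table, 20.8% held TGACG, 1.79% TGACGTCA, 16% TCGTG, 13.6% TATAAA and 3.19% the MEF2 motif. The AP-1 motif TGAGTCA stood in 5.2% of windows, the EGR motif GCGTGGGCG in 0.612% and the SRF CArG box in 1.63%, and none of these 3 was found in the windows of the 5 genes. These are matches of letters and say nothing of whether a factor binds there.

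Between injured saline and sham mice, Arc, Ptgs2 and Nptx1 rose, which is 3 of 10 genes, against 0.515% of all tested genes that passed as higher and 1.07% in either direction. None of the 10 passed as lower, against 0.556%. The injured saline libraries lay above all sham libraries, without overlap, for 6 of the 10: Arc, Homer1, Nptx1, Nptx2, Ptgs2 and Plk2. Over all tested genes, 10.9% did so. The log2 fold change was positive for 9 of the 10 and negative for Inhba, with a median of 0.44 against -0.02 over all tested genes. At an unadjusted p under 0.05, 7 of the 10 would be counted, against 16.6% of all tested genes. DESeq2 passed 6 of the 10, against 6.76% of the genes to which it gave an adjusted p, and limma-voom passed 6, against 4.83%. These are tissue levels, in which fewer cells of a type and less RNA per cell cannot be told apart.

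**Figure D1:**
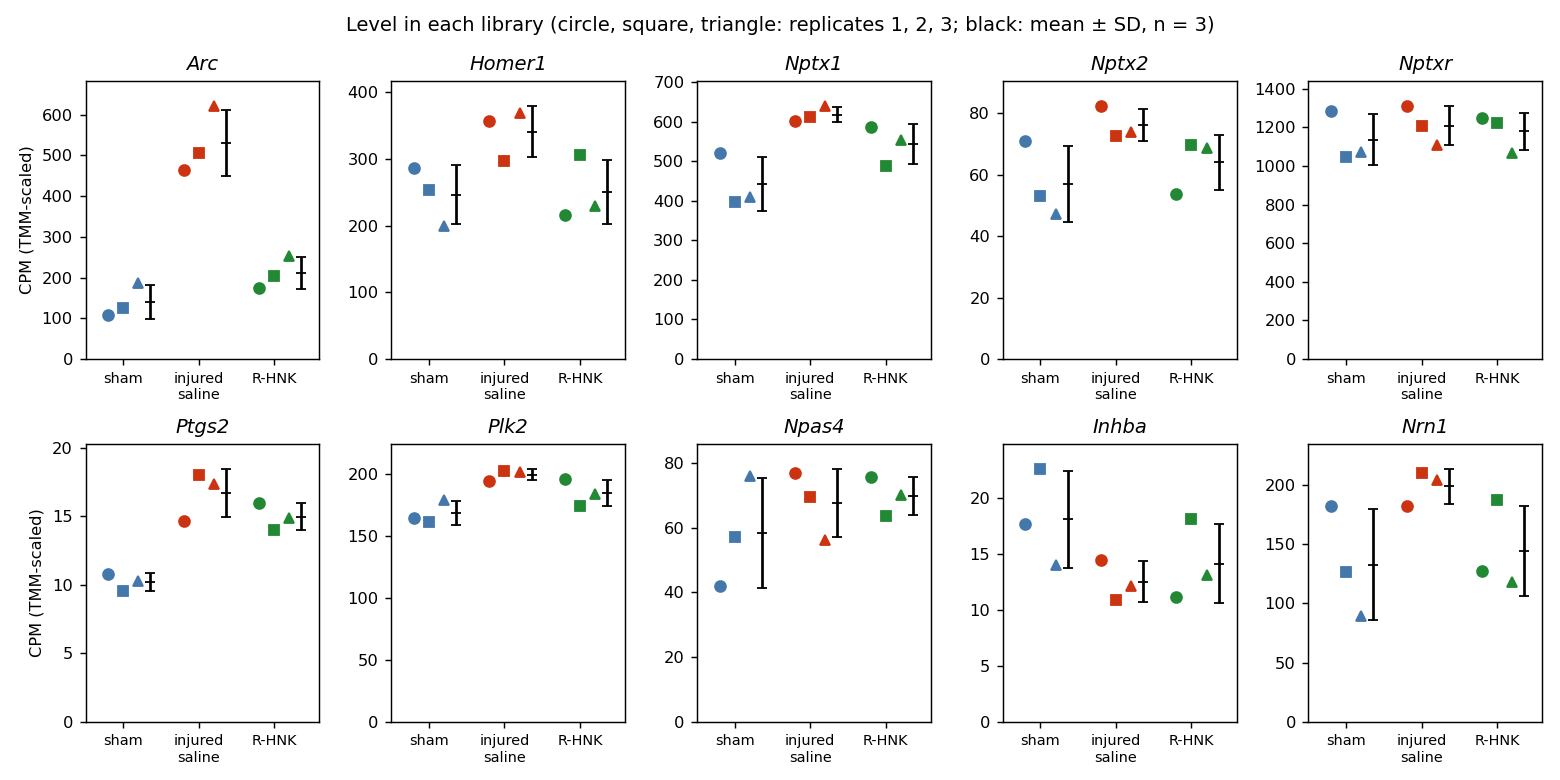
Level of each of the 10 genes in CPM, with 1 panel per gene, the 3 groups on the horizontal axis, 1 point per mouse and the mean with its SD (n = 3) in black. The 3 injured saline points for Arc sit between 465 and 620.4 CPM, above every sham and R-HNK point, and Nptxr and Npas4 overlap in all groups.

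Arc (chromosome 15, 74669083 to 74672570, minus strand, GRCm38) encodes a protein that enters spines and dendrites, binds the endocytic machinery and promotes the internalisation of AMPA receptors. It measured 108, 125 and 187 CPM in sham mice, 465, 506 and 620.4 after injury with saline and 176, 205 and 252 after injury with R-HNK. All 3 injured saline mice were above the other 6, while the sham and R-HNK values overlapped through sham replicate 3. Arc rose 3.79-fold from sham to injured saline mice, which is 1.92 ± 0.24 on the log2 scale (adjusted p = 0.0151, edgeR). The spread between its highest and its lowest library was 5.73-fold, against 1.85-fold for Homer1. Arc passed in 15 of 19 other settings, with log2 fold changes from 1.78 to 2.30. The call was lost in fits without sham replicate 2 (adjusted p = 0.0825), without injured saline replicate 2 (0.0588), without injured saline replicate 3 (0.0680) and with the striatal score as a covariate (0.0781).

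Homer1 (chromosome 13, 93299635 to 93405129, plus strand) encodes a scaffold that ties group I metabotropic glutamate receptors to Shank and to internal calcium stores. Its short activity-induced form and its long forms are pooled in the gene count, which covers 12 annotated transcripts. Homer1 measured 287, 253 and 199 CPM in sham mice, 356, 297 and 368 after injury with saline and 215, 305 and 229.6 after injury with R-HNK. The injured saline values were above all sham values, and R-HNK replicate 2 reached into their range. The difference from sham was 0.47 ± 0.16 on the log2 scale and did not pass (adjusted p = 0.198). It passed by DESeq2 (adjusted p = 0.0264), the only 1 of 19 other settings in which it did. Over these settings the log2 difference ran from 0.17 to 0.60.

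The pentraxins Nptx1 and Nptx2 are secreted proteins that bind AMPA receptors from outside the cell, and Nptxr is their membrane-bound partner. Nptx1 (chromosome 11, 119538719 to 119547753, minus strand) measured 521, 397 and 409.8 CPM in sham mice, 603, 611 and 639 after injury with saline and 588, 488 and 555 after injury with R-HNK. The injured saline values were above all 6 others, and sham replicate 1 lay within the R-HNK range. Nptx1 rose by 0.48 ± 0.10 (log2, adjusted p = 0.0455) between sham and injured saline mice. This call was close to the threshold and was kept in 9 of 19 other settings. The log2 fold change fell to 0.25 once the 4 striatal-marked libraries were left out, a fit that keeps 1 sham library. Of the 9 fits that left out 1 library, Nptx1 passed in those without sham replicate 1 and without R-HNK replicate 2. It missed the threshold in the other 7. Sham replicate 1 is the only sham library low in striatal markers, so the fit without it compares raised sham with low injured saline libraries.

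Nptx2 (chromosome 5, 144545902 to 144557478, plus strand), the pentraxin known for its induction by activity, measured 71.0, 53.0 and 47.2 CPM in sham mice, 82.3, 72.6 and 74.0 after injury with saline and 53.6, 69.7 and 68.7 after injury with R-HNK. The injured saline values were above all others, the nearest being sham replicate 1. The difference from sham was 0.42 ± 0.15 on the log2 scale (adjusted p = 0.189). It was 0.11 without the 4 libraries raised in striatal markers, a fit that keeps 1 sham library. Nptx2 passed without sham replicate 1 (adjusted p = 0.00871), by DESeq2 (0.04997) and by limma-voom (0.0493), the only 3 of 19 other settings in which it did. The fit without sham replicate 1 keeps only sham libraries raised in striatal markers, against injured saline libraries that are all low in them. Nptxr (chromosome 15, 79786351 to 79804766, minus strand) measured 1287, 1048 and 1071 CPM in sham mice, 1309, 1206 and 1109 after injury with saline and 1248, 1221 and 1069 after injury with R-HNK. All 3 groups overlapped, and the difference between injured saline and sham was 0.09 ± 0.09 (log2, adjusted p = 0.686). Nptxr shares 890 exonic bases with Npcd on the same strand. Npcd was listed with 8, 13 and 34 counts in the injured saline replicates and 0 in the other 6 libraries, and the Nptxr counts were at least 58896 in every library. The injured saline values of both secreted pentraxins lay above all sham values, as for 10.9% of all tested genes, and those of the receptor did not. For Nptx2 the gap was small, 72.6 against 71.0 CPM, and the difference did not pass. No test compared one gene's change with another's.

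Ptgs2 (chromosome 1, 150100031 to 150108227, plus strand) encodes cyclooxygenase-2, the inducible enzyme that starts prostaglandin synthesis and that excitatory neurons express with activity. It measured 10.8, 9.52 and 10.3 CPM in sham mice, 14.7, 18.0 and 17.3 after injury with saline and 16.0, 14.0 and 14.9 after injury with R-HNK. Both injured groups lay above all sham libraries, and they overlapped each other. Ptgs2 rose 1.63-fold between sham and injured saline mice (log2 0.71 ± 0.11, adjusted p = 0.00991, edgeR). It passed in 14 of 19 other settings. The call was lost in fits without sham replicate 2 (adjusted p = 0.0683), without injured saline replicate 2 (0.0717) or 3 (0.0625), with the striatal covariate (0.0838) and without the 4 raised libraries (0.266, log2 fold change 0.63).

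Plk2 (chromosome 13, 110395046 to 110400844, plus strand) encodes a polo-like kinase that is induced by sustained activity and weakens synapses by phosphorylating regulators of Ras and Rap. It measured 164, 161 and 179 CPM in sham mice, 194, 202 and 201 after injury with saline and 195, 174 and 183 after injury with R-HNK. The injured saline values were above all sham values by a small margin, and the R-HNK values reached into both ranges. The difference from sham was 0.24 ± 0.07 on the log2 scale (adjusted p = 0.0999). It passed by DESeq2 (adjusted p = 0.0162) and by limma-voom (0.0413), the only 2 of 19 other settings in which it did.

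Npas4 (chromosome 19, 4984355 to 4990316, minus strand) is the transcription factor of the set, known to respond to calcium influx and to shape inhibitory synapses. It measured 41.9, 57.1 and 76.0 CPM in sham mice, 77.0, 69.5 and 56.2 after injury with saline and 75.6, 63.6 and 70.1 after injury with R-HNK. All groups overlapped, and the lowest and the second highest of the 9 values were both in sham mice. The difference between injured saline and sham was 0.21 ± 0.20 (log2, adjusted p = 0.661) and passed in none of the 19 other settings. The value was 0.03 without sham replicate 1, 0.13 without injured saline replicate 1, 0.33 without injured saline replicate 3 and 0.45 without sham replicate 3. It was 0.70 without the 4 libraries raised in striatal markers and 0.59 with the striatal score as a covariate. The first of these fits keeps 1 sham library, sham replicate 1, whose 41.9 CPM was the lowest of the 9 Npas4 values.

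Inhba and Nrn1 encode secreted or membrane-anchored factors. Inhba (chromosome 13, 16011851 to 16031621, plus strand), the beta A subunit of activin, measured 17.7, 22.6 and 14.0 CPM in sham mice, 14.5, 10.9 and 12.2 after injury with saline and 11.2, 18.1 and 13.2 after injury with R-HNK. It was the only gene of the 10 with a negative difference from sham, -0.53 ± 0.20 on the log2 scale (adjusted p = 0.222), and sham replicate 3 overlapped the injured values. Without sham replicate 2 the difference was -0.34 (adjusted p = 0.507). Nrn1 (chromosome 13, 36725361 to 36735131, minus strand), or neuritin, a membrane-anchored protein that promotes neurite growth and synapse maturation, measured 182, 126 and 89.8 CPM in sham mice, 182, 210.1 and 204 after injury with saline and 127, 188 and 118 after injury with R-HNK. Its difference from sham was 0.58 ± 0.28 (log2, adjusted p = 0.363). It passed by limma-voom (0.76, adjusted p = 0.0409) and in none of the other 18 settings. The value ran from 0.37 without sham replicate 3 to 0.89 without sham replicate 1 when 1 library was left out. The fit without sham replicate 1 keeps only sham libraries raised in striatal markers. Without the 4 libraries raised in these markers, which leaves 1 sham library, the value was 0.13. Nrn1 overlaps 501 exonic bases of Fars2 on the other strand, and the sources used here do not say whether reads were counted by strand, so the 2 cannot be fully told apart. Fars2 measured 13.4 ± 2.38 CPM in the sham group and 12.5 ± 1.05 in the injured saline group (SD, n = 3), with a log2 difference of -0.10 ± 0.15 (adjusted p = 0.794).

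Between R-HNK and injured saline mice, 0 of the 10 genes passed in edgeR, against 0.119% of all tested genes. Arc and Homer1, 2 of the 10, had an unadjusted p under 0.05, against 7.47%. Arc alone passed by DESeq2, against 0.644% of all genes, and by limma-voom, against 0.211%. The R-HNK libraries lay below all injured saline libraries for 3 genes, Arc, Nptx1 and Nptx2, against 6.59% of all tested genes. The log2 fold change was negative for 8 of the 10, with a median of -0.17 against 0.01 over all genes. This comparison shares the injured saline mice with the one before, so opposite signs in both are not independent of each other.

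The mean of Arc was 530.4 ± 80.7 CPM in injured saline and 210.9 ± 38.7 CPM in R-HNK mice (SD, n = 3). The highest R-HNK value, 252 CPM, was under the lowest injured saline value, 465 CPM. The log2 difference was -1.33 ± 0.23, and Arc ranked 54 of 21765 genes by unadjusted p, 0.000529, with an adjusted p of 0.213. Arc passed in 6 of 19 other settings: DESeq2 (adjusted p = 0.000146), limma-voom (0.00566), the replicate block (0.000274), the 2 groups alone (0.0140), without sham replicate 3 (0.00736) and without the 4 raised libraries (0.00643). Its log2 difference ran from -1.52 to -1.20 over these 19 settings, and its adjusted p from 0.000146 to 0.602. The sign was the same in all 19.

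**Figure D2:**
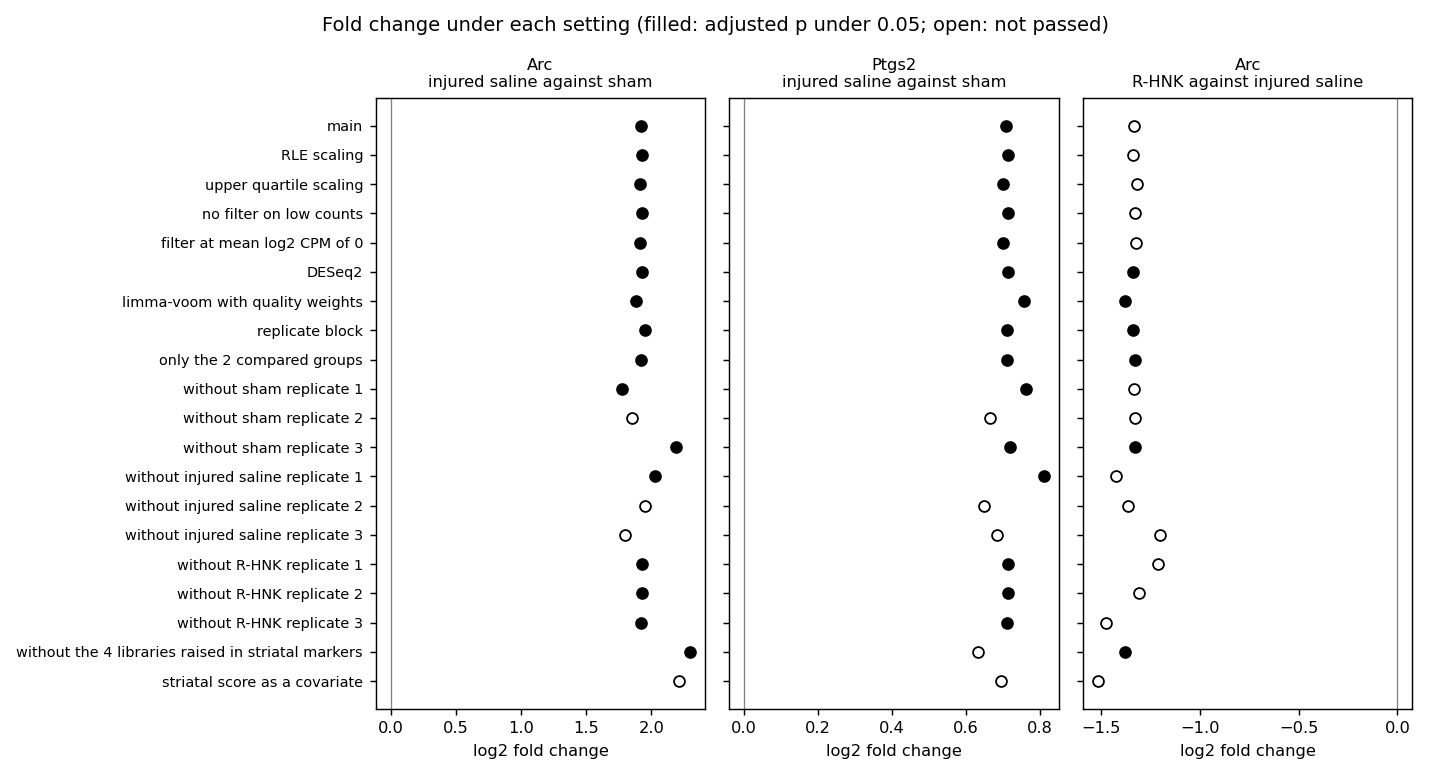
Log2 fold change of Arc and Ptgs2 between injured saline and sham mice and of Arc between R-HNK and injured saline mice, under the reported fit and 19 other settings, with filled points for an adjusted p under 0.05. The Arc points for injured saline against sham lie between 1.78 and 2.30, and those for R-HNK against injured saline between -1.52 and -1.20.

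The other 9 genes had smaller differences between R-HNK and injured saline mice. Homer1 differed by -0.45 ± 0.16 (adjusted p = 0.613) and Nrn1 by -0.46 ± 0.28 (0.734) on the log2 scale. For both, R-HNK replicate 2, the R-HNK library low in striatal markers, was within the injured saline range, and replicates 1 and 3 were below it. Nptx1 differed by -0.18 ± 0.10 (adjusted p = 0.702), Nptx2 by -0.25 ± 0.15 (0.712), Ptgs2 by -0.16 ± 0.11 (0.767) and Plk2 by -0.11 ± 0.07 (0.714). Nptxr at -0.03 ± 0.09 and Npas4 at 0.05 ± 0.20 were near 0, and Inhba measured 0.18 ± 0.20. A p above the threshold with 3 mice a group does not show that these levels were equal.

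Between R-HNK and sham mice, 0 of the 10 genes passed in edgeR, against 0.00459% of all tested genes, which is 1 gene. Arc, Nptx1 and Ptgs2, 3 of the 10, had an unadjusted p under 0.05, against 3.53%. Ptgs2 passed by DESeq2 (adjusted p = 0.0324), as did 0.046% of all genes, and no gene of the set passed by limma-voom, which called 0% of all genes. Ptgs2 was the only gene whose R-HNK libraries lay above all sham libraries, which 4.43% of all tested genes did. It measured 15.0 ± 0.995 CPM in R-HNK and 10.2 ± 0.644 CPM in sham mice (SD, n = 3), a log2 difference of 0.55 ± 0.11 that ranked 5 of 21765 by unadjusted p, 0.000292, with an adjusted p of 0.930. Arc differed from sham by 0.59 ± 0.23 and Nptx1 by 0.30 ± 0.10, both with overlapping groups. The median over the 10 genes was 0.15, against -0.01 over all tested genes. In a test for any difference among the 3 groups, Arc (adjusted p = 0.0350) and Ptgs2 (0.0316) passed, which is 2 of 10 against 0.381% of all tested genes, and Nptx1 did not (0.134). DESeq2 passed 4 of the 10 in this test, against 4.07% of the genes to which it gave an adjusted p.

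Side by side, the R-HNK mean lay differently for the 2 genes that passed in that test, though both genes had the order sham, R-HNK, injured saline. For Arc the R-HNK mean of 210.9 CPM stood nearer to the sham mean of 140.0 CPM than to the injured saline mean of 530.4 CPM. For Ptgs2 the R-HNK mean of 15.0 CPM stood nearer to the injured saline mean of 16.7 CPM than to the sham mean of 10.2 CPM. Whether the 2 genes differ in this respect was not tested.

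Levels that can be compared between genes are CPM per kb of annotated exon. In sham mice they fell in the order Nptxr (219.6 ± 25.5), Nptx1 (84.8 ± 13.1), Nrn1 (59.1 ± 20.8), Arc (45.8 ± 13.6), Plk2 (37.4 ± 2.13), Nptx2 (22.5 ± 4.89), Homer1 (20.6 ± 3.68), Npas4 (14.1 ± 4.13), Inhba (2.83 ± 0.673) and Ptgs2 (2.23 ± 0.141; SD, n = 3 for each). In that order the ranges of Nptx1 and Nrn1, Nrn1 and Arc, Arc and Plk2, Nptx2 and Homer1, Homer1 and Npas4, and Inhba and Ptgs2 overlapped. In injured saline mice Arc, at 174 ± 26.4, stood next to Nptxr, at 234 ± 19.4, and above Nptx1, at 118 ± 3.64, with no overlap between these neighbours. Ptgs2, at 3.64 ± 0.385, stood above Inhba, at 1.96 ± 0.286. In R-HNK mice Arc, at 69.0 ± 12.7, came after Nptxr and after Nptx1 at 104 ± 9.74, and it overlapped Nrn1 at 64.1 ± 16.8. The Homer1 value rests on the union of exons of long and short forms, 11976 bases, so its place in the order depends on which forms were present.

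**Figure D3:**
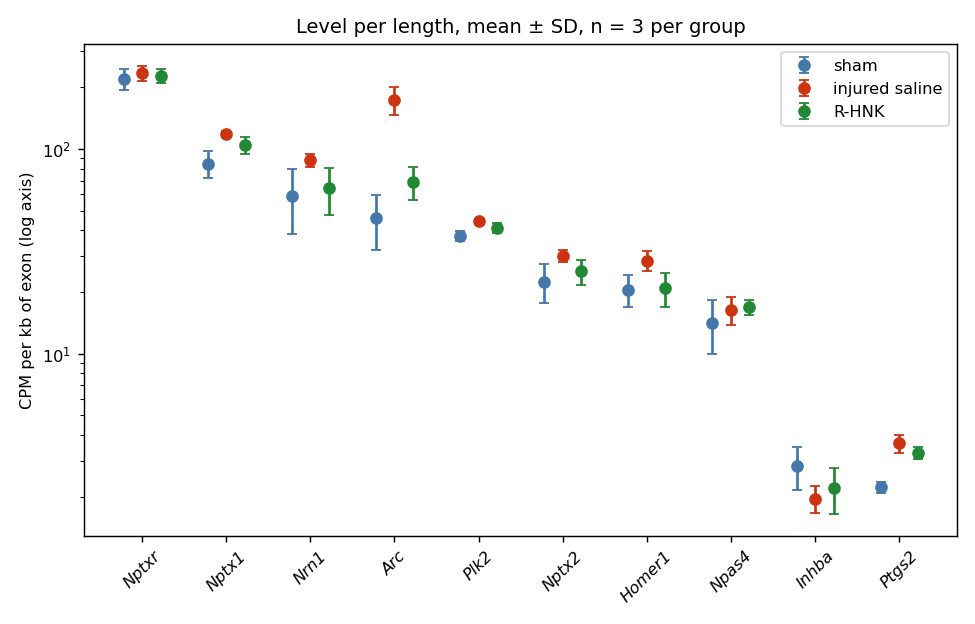
CPM per kb of exon for the 10 genes in the 3 groups on a log axis, as mean with SD, n = 3. Arc moves from the fourth place in sham to the second in injured saline mice, while Nptxr is the highest of the 10 in every group.

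Libraries raised in striatal markers measured lower for 3 of the 10 genes. None of the 4 raised libraries is from an injured saline mouse, and the other 5 include all 3 of that group. The split and the injury therefore cannot be told apart over the 9 libraries. For Nrn1 the 4 raised libraries lay between 89.8 and 127 CPM and the other 5 between 182 and 210.1 CPM. Homer1 lay between 199 and 253 CPM in the raised libraries and between 287 and 368 CPM in the others. Nptx2 lay between 47.2 and 68.7 CPM in the raised libraries and between 69.7 and 82.3 CPM in the others. Over all tested genes, 4.26% were lower in the raised libraries without overlap and 5.12% higher. The other 7 genes overlapped between the 2 sets of libraries. Within sham mice, replicate 1, low in striatal markers, had the highest Nrn1, Homer1 and Nptx2, and within R-HNK mice replicate 2 had the highest of all 3. For Nptx2 that last margin was small, 69.7 CPM against 68.7 CPM in R-HNK replicate 3. With the striatal score as a covariate the difference between injured saline and sham became 0.07 for Nrn1, 0.17 for Homer1 and 0.17 for Nptx2 on the log2 scale, against 0.58, 0.47 and 0.42 without it. The injured saline scores ran only from -1.33 to -1.28, so the slope of this covariate rests almost wholly on the sham and R-HNK libraries. Sham replicate 1 was the only sham library with a score below 0, at -1.09. How much of these differences goes with striatal tissue was not tested.

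Arc overlapped between the 4 raised and the 5 other libraries. With the striatal score as a covariate its log2 difference was 2.21 for injured saline against sham, which did not pass (adjusted p = 0.0781), and -1.52 for R-HNK against injured saline (0.286). Among the 5 libraries low in striatal markers, Arc measured 108 CPM in sham replicate 1, 465 to 620.4 CPM in the injured saline replicates and 205 CPM in R-HNK replicate 2. Without the 4 raised libraries its log2 difference was 2.30 for injured saline against sham (adjusted p = 0.000128) and -1.38 for R-HNK against injured saline (0.00643). Those fits keep 1 sham and 1 R-HNK library, which are assumed to vary like the 3 injured saline libraries. The summed immature neuron markers also differed between groups, at 124 to 153 CPM in sham, 69.6 to 73.2 CPM in injured saline and 104 to 132 CPM in R-HNK mice, and 5 of these 6 markers fell between sham and injured saline and 2 rose between injured saline and R-HNK. Fibroblast markers summed to 37.4 to 58.2, 23.2 to 28.0 and 31.6 to 45.9 CPM in sham, injured saline and R-HNK mice, with 2 of 6 lower in injured saline against sham. Excitatory neuron markers summed to 4713 to 5741, 5402 to 6000 and 5251 to 5338 CPM, with 1 of 6 higher. Deep layer markers summed to 340 to 414, 370 to 407 and 359 to 435 CPM, with 2 of 6 higher. Inhibitory interneuron markers summed to 887 to 1131, 829 to 876 and 833 to 943 CPM, with 1 of 8 lower. As a description over the 9 libraries, which share their groups and the striatal split, Pearson's r with the mean log2 CPM of the excitatory markers was 0.91 for Nrn1, 0.88 for Nptx1 and 0.85 for Nptx2, and Spearman's rho was 0.92, 0.83 and 0.92. For the other 7 genes r ran from -0.46 for Inhba to 0.78 for Homer1, with 0.65 for Arc and 0.77 for Ptgs2. The part of these markers in the differences of the 10 genes was not tested.

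**Figure D4:**
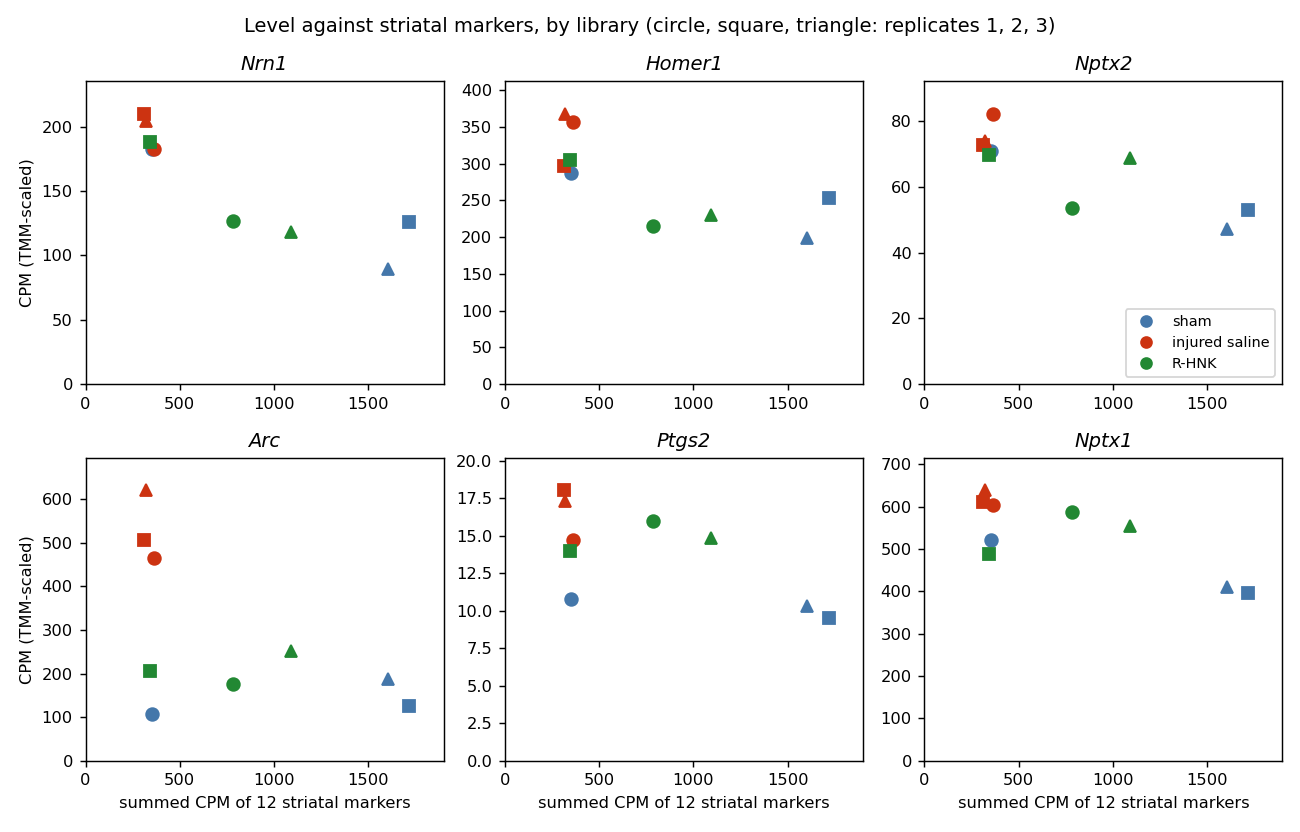
CPM of 6 genes against the summed CPM of 12 striatal markers, 1 point per library, coloured by group. Nrn1, Homer1 and Nptx2 are lower in the 4 libraries to the right, none of them injured saline. Arc separates the injured saline libraries from sham replicate 1 and R-HNK replicate 2 at a similar striatal level.

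The genes around the 10 were taken from 8 lists with 99 genes in all. Of these, 1 rose and 1 fell between sham and injured saline mice in edgeR, against 1.07% of all tested genes in either direction, and 29 had an unadjusted p under 0.05, against 16.6%. DESeq2 passed 4 as higher and 5 as lower, against 6.76% of all genes with an adjusted p, and limma-voom 5 and 4, against 4.83%. The counts that passed are small and were not tested against these shares. They are given as a description and are no result about the lists. For R-HNK against injured saline, 0 passed in edgeR, 12 had an unadjusted p under 0.05, against 7.47% of all tested genes, and 1 passed as lower by DESeq2 and by limma-voom, against 0.644% and 0.211%. For R-HNK against sham, 0 passed by any of the 3 tools, with 2 at an unadjusted p under 0.05 in edgeR, against 3.53% of all tested genes.

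The gene that rose was Plk3, a polo-like kinase related to Plk2, from a list of 10 kinases and targets with a median log2 fold change of 0.01. Plk3 measured 16.7, 9.75 and 11.3 CPM in sham mice, 21.1, 28.2 and 31.5 after injury with saline and 15.4, 13.3 and 12.6 after injury with R-HNK. The injured saline values were above the other 6, with a log2 fold change of 1.10 ± 0.20 from sham (adjusted p = 0.0296, edgeR). The gene that fell was Cacna1c, the L-type calcium channel subunit upstream of Npas4, from a list of 15 with a median of 0.02. Cacna1c measured 127, 125 and 123 CPM in sham mice, 109, 85.7 and 91.8 after injury with saline and 116, 113 and 109 after injury with R-HNK. The injured saline and the R-HNK values were below all sham values. The highest injured saline value, 108.9 CPM, was just under the lowest R-HNK value, 109.1 CPM. Cacna1c fell by 0.39 ± 0.08 on the log2 scale (adjusted p = 0.0476, edgeR) between sham and injured saline mice. In that comparison 10.9% of all tested genes lay lower without overlap.

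No other list had a gene that passed in edgeR. The counts that follow, for injured saline against sham, stand against 16.6% of all tested genes with an unadjusted p under 0.05, 6.76% passing by DESeq2 and 4.83% by limma-voom, and in lists of this size they are given as a description. Of 19 Arc partners and genes of AMPA receptor endocytosis, 0 passed and 7 had an unadjusted p under 0.05, with 1 passing by DESeq2 and 2 by limma-voom. Their median was 0.06, and the 2 with the smallest p were the endophilin Sh3gl2 at 0.35 ± 0.11 and the AP-2 subunit Ap2s1 at 0.23 ± 0.08. Of 12 Homer1 partners, 0 passed and 2 had an unadjusted p under 0.05, with 1 passing by each other tool. They were Homer2 at -0.30 ± 0.08 and the glutamate receptor Grm5 at -0.25 ± 0.10. Of 12 pentraxin partners, 0 passed and 4 had an unadjusted p under 0.05, with 1 passing by each other tool. The kainate receptor subunits Grik2 at -0.35 ± 0.10 and Grik4 at 0.26 ± 0.10 led that list by p, in opposite directions.

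Of 13 genes of the prostaglandin pathway around Ptgs2, 0 passed in edgeR, by DESeq2 or by limma-voom, and 4 had an unadjusted p under 0.05, again against 16.6% of all tested genes. The prostaglandin E synthases Ptges3 at 0.31 ± 0.11 and Ptges2 at 0.25 ± 0.10 had the smallest p, and the median was 0.11. Of 15 genes of the activin pathway, 0 passed and 6 had an unadjusted p under 0.05, with 1 higher and 2 lower by DESeq2 and 1 in each direction by limma-voom. The pseudoreceptor Bambi at -0.91 ± 0.24 and the receptor Acvr2b at -0.64 ± 0.17 had the smallest p, and 11 of the 15 had a negative sign, with a median of -0.07. Of the 3 genes of the neuritin pathway, 0 passed by any of the 3 tools and 0 had an unadjusted p under 0.05 in edgeR. Insr measured -0.14 ± 0.07 and Nrn1l -0.94 ± 0.60 on the log2 scale, the latter at 0.613 ± 0.402 CPM in sham mice.

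As a reference, 14 genes induced by activity, most of them transcription factors, were measured in the same fits. This list too was chosen with earlier results of these data known. Of these, 11 rose between sham and injured saline mice, against 0.515% of all tested genes, with a median log2 fold change of 1.01 against -0.02. In 13 the injured saline libraries lay above all sham libraries, against 10.9% of all tested genes. The 11 were Egr2 (1.65), Nr4a1 (1.42), Fos (1.34), Nr4a3 (1.23), Klf4 (1.10), Fosb (1.02), Egr4 (1.01), Egr1 (0.92), Ier2 (0.91), Fosl2 (0.78) and Egr3 (0.72). Between R-HNK and injured saline mice, 4 of the 14 fell, Nr4a1 (-0.84), Nr4a3 (-0.80), Egr1 (-0.63) and Egr4 (-0.62), against 0.0827% of all tested genes that passed as lower, with a median of -0.60 against 0.01. Between R-HNK and sham mice 0 passed in edgeR and 11 had an unadjusted p under 0.05, against 3.53% of all tested genes. In that comparison 2 passed by DESeq2, against 0.046%, and 0 by limma-voom. In the same fit the log2 fold change from sham was 1.92 for Arc and 1.65 ± 0.16 for Egr2, the highest of the 14. It was 0.21 for Npas4 and 0.35 ± 0.37 for Nr4a2, the lowest of the 14. The Npas4 value ran from 0.03 to 0.70 over the 19 other settings, and the 0.70 came from a fit with 1 sham library. Differences between Arc or Npas4 and these 14 genes were not tested.

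The genes whose log2 CPM over the 9 libraries was most like that of each member are given as a description, from 15715 candidates whose mean log2 CPM was 0 or more. The 9 libraries share their groups and the striatal split, and r was the largest among all candidates, so it is given with no p. For Arc they were Sik1 (r = 0.99), Nr4a1 (0.98) and Fos (0.98), and for Nrn1 they were Napa, Osbpl1a and Ppme1 (all 0.99). For Homer1 they were Pcsk1, Cx3cl1 and Fbxo45 (all 0.98), for Nptx1 Myrip (0.98), Mark4 and Zyx (both 0.97), and for Nptx2 Pde4a, Kcnab2 and Cabp1 (all 0.98). For Nptxr they were Stum and Pelo (both 0.96) and Mylk3 (0.95), and for Ptgs2 Zfp184, Arid5b and Sult2b1 (all 0.97). For Plk2 they were Grpel2 (0.98), Gse1 (0.96) and Klf4 (0.95), for Npas4 Lsr (0.96), Sft2d1 (0.94) and Gadd45g (0.93), and for Inhba Gm50240 (0.98), C1galt1 (0.96) and Airn (0.94). No gene appeared for more than 1 member, and Klf4 is in the reference list above along with Nr4a1 and Fos.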

How the data were processed

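RNA of prelimbic cortex from 9 mice, 3 per group, was sequenced on an Illumina NovaSeq instrument, per the labels. Reads were aligned to mm10 with HISAT2 2.0.5 and counted with featureCounts 1.5.0-p3, per the submitters' processing notes, while StringTie stands in the name of the deposited table. The values deposited by the authors are expected counts, that is estimated numbers of reads for each gene symbol; all are whole numbers and none is normalized. Whether counting used strand, and the annotation, are not given in the sources used here.

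Differences were tested with edgeR 4.0.16 under R 4.3.3 (filterByExpr by group, TMM, robust quasi-likelihood fit on all 9 libraries with 1 mean per group, Benjamini-Hochberg adjustment over 21765 genes). The filter kept at least 99.95% of the counts of each library, the TMM factors ran from 0.979 to 1.03 and the common biological coefficient of variation was 0.203. The SE was worked back from the test statistic. With 3 mice against 3, an exact permutation test of 1 gene could not go below p = 0.1, so the tests rest on a spread shared across genes. Exonic lengths and positions came from GENCODE on GRCm38. The striatal score is the mean of the centred log2 CPM of 12 markers, and libraries above 0 were called raised. Other settings were relative log expression and upper quartile scaling, no filter, a floor of 0 on the mean log2 CPM, DESeq2 1.42.0, limma-voom (limma 3.58.1) with quality weights, a block for the replicate number, a fit of only the compared groups, each library left out in turn, the 4 raised libraries left out, and the striatal score as a covariate. The fits were tested on simulated counts with known changes. Of 1.5-fold changes they recovered 50.7% for injured saline against sham, 44.8% for R-HNK against injured saline and 47.8% for R-HNK against sham. False calls were 4.46%, 6.25% and 5.73% of all calls in the same order. The simulated libraries held no difference in striatal markers. The genes, lists and alternatives were chosen with earlier results of these data known. All 10 genes were named. Of each other list those that passed in any pairwise comparison were named or, where none did, the 2 with the smallest p in injured saline against sham. For likeness, the 3 genes with the highest Pearson r were named.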

Additional observations from a re-analysis of the deposited data

How the results depend on the processing

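Of the 10 genes, 3 passed in injured saline against sham, 0 in R-HNK against injured saline, 0 in R-HNK against sham and 2 in the test for any difference. DESeq2 gave 6, 1, 1 and 4, and limma-voom gave 6 and 1 in the first 2 comparisons. Over all genes tested, the first comparison called 233 genes in edgeR, 1185 by DESeq2 and 1051 by limma-voom. With no filter 1 gene passed for any difference. With the compared groups alone 1 gene, Arc, passed in R-HNK against injured saline. Without the 4 libraries raised in striatal markers, Arc alone passed in injured saline against sham, in R-HNK against injured saline and for any difference, so that each count was 1. With the striatal covariate 0 passed in injured saline against sham and 0 for any difference. Leaving out 1 library gave 0 to 4 genes for injured saline against sham, with 0 without sham replicate 2, injured saline replicate 2 or injured saline replicate 3, and 0 to 1 for R-HNK against injured saline, with 1 without sham replicate 3. It gave 0 to 0 for R-HNK against sham and 0 to 4 for any difference, with 4 without sham replicate 1. The sham libraries kept in that last fit are all raised in striatal markers.

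The labels do not say whether replicate numbers pair the mice. Over all tested genes, deviations of libraries with the same number correlated between -0.104 and 0.0917. Those of libraries with different numbers correlated between -0.163 and 0.175. For Arc the values rose from replicate 1 to replicate 3 in each group, and whether this reflects pairing was not tested. With the replicate number as a block, 1 gene, Arc, passed in R-HNK against injured saline and 1 for any difference.

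Of 750 values for single genes, 673 kept their side of the threshold and, in the pairwise comparisons, their direction. Another 36 lost and 19 gained a call, and 22 changed sign, none of them past the threshold in either fit. The 750 include the test for any difference among the 3 groups, which has no direction. For R-HNK against sham, Homer1 became -0.0077 by limma-voom and -0.079 with the striatal covariate, and ran from -0.14 to 0.15 when 1 library was left out (negative without sham replicate 3, -0.11, or R-HNK replicate 2, -0.14). Nrn1 became -0.039 with the covariate and ran from -0.11 to 0.43 (negative without the same libraries, -0.093 and -0.11). For R-HNK against injured saline, Nptxr became 0.011 without the 4 raised libraries and 0.077 with the covariate, and ran from -0.091 to 0.033 (positive without injured saline replicate 1, 0.019, or R-HNK replicate 3, 0.033). Npas4 became -0.091 without the 4 libraries and -0.19 with the covariate, and ran from -0.069 to 0.14 (negative without injured saline replicate 3, -0.069, or R-HNK replicate 1, -0.013). Inhba ran from -0.040 to 0.32 (negative without R-HNK replicate 2). Nptxr in injured saline against sham became -0.086 without the 4 libraries and -0.067 with the covariate. Without the 4 libraries, R-HNK against sham gave -0.094 for Nptx1, -0.026 for Nptx2, -0.075 for Nptxr and 0.036 for Inhba. These values compare 1 R-HNK library with 1 sham library. The cause was not tested.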
